A study of Mus musculus with 95 samples.

Results

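The genes described here are the klotho proteins and the fibroblast growth factor (FGF) receptors, with 2 of their ligands: Klb (beta-klotho), Kl (alpha-klotho), Fgf1, Fgf21, Fgfr1, Fgfr2, Fgfr3 and Fgfr4. These 8 members were chosen by gene symbol from the 25407 symbols of the expression files. The choice was made with earlier results of the same FPKM values known, so the tests of members below are no independent evidence. Libraries came from glomeruli and cortex of the kidney, from dorsal root ganglia (DRG) and from the sciatic nerve (SCN) of male C57BLKS mice (strain BKS.Cg-m +/+ Leprdb/J) at 16 weeks of age. The controls were db/+ mice, which carry 1 copy of the leptin receptor allele Lepr db, and the diabetic mice were db/db, which carry the allele on both chromosomes. Either genotype was kept untreated or given pioglitazone (PIO) in chow at 15 mg/kg for 11 weeks, which gave the untreated groups db/+ and db/db and the treated groups db/+ PIO and db/db PIO in each tissue. Each group held 6 libraries, except db/db in DRG with 5, and there were 95 libraries in all. The labels do not say which libraries of different tissues came from 1 animal, and p-values measure the spread between these libraries. The allele disrupts the signalling form of the leptin receptor throughout life, so diabetes, obesity and the loss of leptin action cannot be told apart in db/db mice.

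FGF receptors are tyrosine kinases at the cell surface. FGF21 and FGF1 are ligands of these receptors, and FGF21, an endocrine factor released above all by the liver and by fat, needs beta-klotho as a co-receptor. Alpha-klotho is the co-receptor of FGF23, a hormone from bone that lowers phosphate reabsorption and vitamin D activation in the kidney, and the distal tubule is its best known site. Beta-klotho is best known from liver and adipose tissue. Pioglitazone is an agonist of PPARG, a nuclear receptor that drives adipocyte genes and binds DNA as a dimer with the retinoid X receptor.

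In the mm9 assembly, Klb lies on the plus strand of chromosome 5 from 65739625 to 65775242 and Kl on the plus strand of the same chromosome from 151755182 to 151796384, while Fgf21 lies on the minus strand of chromosome 7 from 52869277 to 52870860 and Fgfr4 on the plus strand of chromosome 13 from 55254001 to 55270120. The promoters of the 3 members whose level differed between SCN groups are given here from 250 bases before to 50 bases after the start site in RefSeq (table of GRCm38.p6). Each was found 1 time in the mm9 sequence, Klb at chr5:65739400-65739699, Kl at chr5:151754932-151755231 and Fgf21 at chr7:52870811-52871110 on the minus strand. Capitals mark any match on either strand to AGGTCANAGGTCA (the direct repeat read by PPARG dimers), to the single repeat unit AGGTCA (which also matches inside the longer motif), to TATAAA, to CCAAT or to CACGTG.
Klb: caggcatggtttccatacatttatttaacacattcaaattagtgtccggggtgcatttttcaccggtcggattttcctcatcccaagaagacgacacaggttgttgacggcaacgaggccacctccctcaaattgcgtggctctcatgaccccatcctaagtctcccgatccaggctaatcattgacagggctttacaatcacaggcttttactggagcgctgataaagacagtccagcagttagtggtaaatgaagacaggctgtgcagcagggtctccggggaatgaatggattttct
Kl: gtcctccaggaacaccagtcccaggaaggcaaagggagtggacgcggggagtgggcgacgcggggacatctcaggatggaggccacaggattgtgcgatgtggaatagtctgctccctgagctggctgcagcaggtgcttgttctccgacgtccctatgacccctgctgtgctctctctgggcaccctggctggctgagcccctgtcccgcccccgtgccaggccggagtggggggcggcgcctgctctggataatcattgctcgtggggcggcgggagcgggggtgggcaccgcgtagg
Fgf21: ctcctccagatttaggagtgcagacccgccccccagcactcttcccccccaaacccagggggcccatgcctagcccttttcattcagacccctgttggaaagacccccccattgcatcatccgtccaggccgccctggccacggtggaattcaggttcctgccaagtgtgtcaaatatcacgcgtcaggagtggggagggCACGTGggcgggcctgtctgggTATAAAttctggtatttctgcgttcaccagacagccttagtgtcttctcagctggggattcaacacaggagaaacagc
The promoter of Fgf21 held TATAAA starting at base -28 and CACGTG starting at base -50, counted from the start site. Those letters are present on either strand in 13.6% and 7.15% of the 32851 promoters in the RefSeq table. The windows of Klb and Kl held none of the 5 motifs, and none of the 3 windows held AGGTCANAGGTCA, which 0.0396% of all promoters hold, AGGTCA, which 16.3% hold, or CCAAT, which 37.4% hold. G and C made up 48.3% of the Klb window, 58.0% of the Fgf21 window and 67.3% of the Kl window, against a median of 52.7% over all promoters of the table.

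Expression was given as FPKM, fragment counts scaled by transcript length and by the mapped total of the library. Many values in these files are exactly 0, also for genes that the tissue must express: Umod and Slc12a3, defining genes of the kidney tubule, were listed at 0 in each of the 24 cortex libraries, and Prph, a marker of sensory neurons, in all 23 DRG libraries. A 0 was therefore read as a missing value, and n below counts the libraries above 0. Between 7333 and 10432 symbols were above 0 in a library. Read totals per library are not used here, so the counting error of single values is unknown. Nphs1, a defining podocyte gene, was likewise at 0 in all 24 glomerular libraries, so the label of that tissue was not checked by it.

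Of the 8 members, 4 could be followed across groups. Kl had a value in 63 of 95 libraries, Fgfr4 in 60, Klb in 54 and Fgf21 in 39. Fgf1 and Fgfr3 were listed at 0 in all 95 libraries, Fgfr1 had 2 values and Fgfr2 had 3. The single SCN value of Fgfr1, in db/+ replicate 5, was 26.4 FPKM, the highest value of any member in any library, and its other value was 2.73 FPKM in cortex of db/db replicate 6. The values of Fgfr2 were 0.94 and 1.65 FPKM in SCN of db/+ PIO mice and 0.32 FPKM in DRG of db/+ mice. Receptor levels in SCN and DRG therefore rest on Fgfr4 alone, and no comparison of Fgf1, Fgfr1, Fgfr2 or Fgfr3 between groups was possible.

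The missing values were more frequent in genes with several transcripts. This was looked at in genes whose values above 0 had a median of at least 1 FPKM. The share of libraries at 0 had a median of 54.7% for the 4857 such genes with 1 curated RefSeq transcript. It was 72.6% for the 1921 genes with 2, and 85.3% for the 1673 genes with 3 or more. Fgfr1 and Fgfr2 have 3 curated transcripts each and Fgfr3 has 7, while the other 5 members have 1. Higher levels, taken as the median of the values above 0, did not go with fewer missing values. The median share of libraries at 0 was 54.7% for genes at 1 to 3 FPKM and 74.7% for genes over 100 FPKM. For members too a 0 can stand beside high values, and the counts of zeros are printed with each result.

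**Figure D1:**
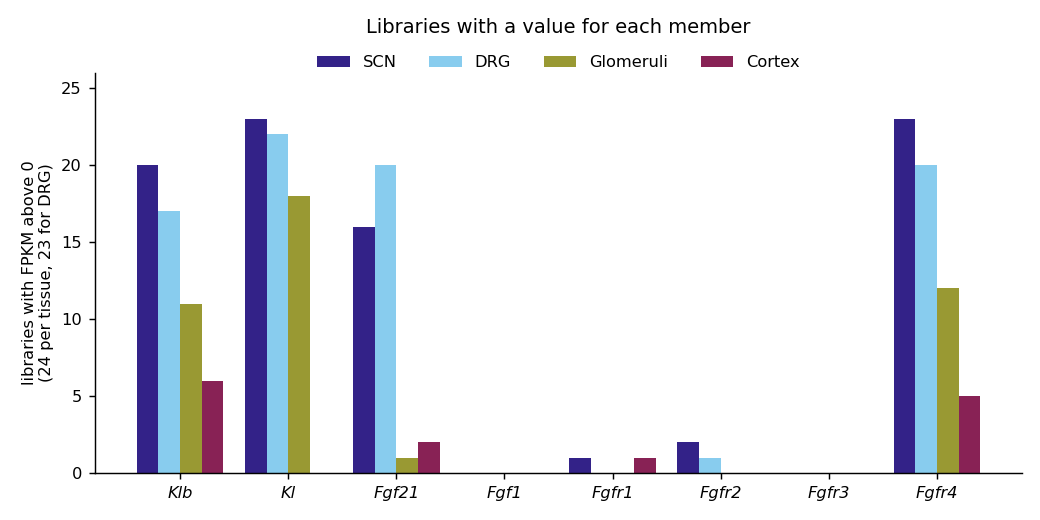
Number of libraries (y axis, of 24 per tissue and 23 for DRG) with an FPKM above 0 for each member (x axis), with bars for SCN, DRG, glomeruli and cortex. Klb is present in 20 SCN libraries, Kl in no cortex library, and Fgf1 and Fgfr3 in none of the 95.

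The 4 measured members had different tissue patterns. Klb was highest in SCN, with a median of 1.56 FPKM (0.16 to 10.2 FPKM, n = 20), and did not exceed 0.08 FPKM in DRG (n = 17), glomeruli (n = 11) or cortex (n = 6). Kl was missing in all 24 cortex libraries, so its level there could not be ranked. Among the tissues with a value it was highest in glomeruli, with a median of 2.54 FPKM (0.47 to 19.95 FPKM, n = 18). DRG followed at 0.255 FPKM (0.18 to 0.37 FPKM, n = 22) and SCN at 0.07 FPKM (0.01 to 0.25 FPKM, n = 23). Fgfr4, a receptor that pairs with beta-klotho in liver, was higher in the kidney libraries with a value than in nerve: it stood at 11.6 to 15.5 FPKM in the 5 cortex libraries with a value and at 2.87 to 10.2 FPKM in 12 glomerular libraries, but between 0.04 and 0.24 FPKM in SCN (n = 23) and between 0.02 and 0.13 FPKM in DRG (n = 20). Fgf21 was low in both nerve tissues, with medians of 0.235 FPKM in SCN (n = 16) and 0.12 FPKM in DRG (n = 20), and had 1 value in glomeruli and 2 in cortex. In SCN the median of the co-receptor Klb stood above those of its ligand Fgf21 and of Fgfr4 on the FPKM scale, which is per length.

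When the groups with at least 3 values were placed in order of their medians, most neighbours overlapped. Neighbours in such an order are the groups closest in median, and the same counts were not made over all genes. The counts are therefore descriptions and set no member apart from other genes. For Klb, 8 of 10 pairs of neighbouring groups overlapped. The first gap lay between DRG of db/+ mice, with values up to 0.06 FPKM, and SCN of db/+ mice, with values from 0.16 FPKM. The second lay between SCN of db/+ PIO mice, up to 4.08 FPKM, and SCN of db/db PIO mice, from 4.32 FPKM. For Kl, 9 of 10 pairs overlapped, and the gap separated the nerve groups, up to 0.37 FPKM, from the glomerular groups, from 0.47 FPKM. For Fgfr4, 8 of 9 pairs overlapped and the gap again lay between nerve, up to 0.19 FPKM in SCN of db/db PIO mice, and glomeruli, from 2.87 FPKM. All 6 neighbouring pairs of Fgf21 overlapped.

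**Figure D2:**
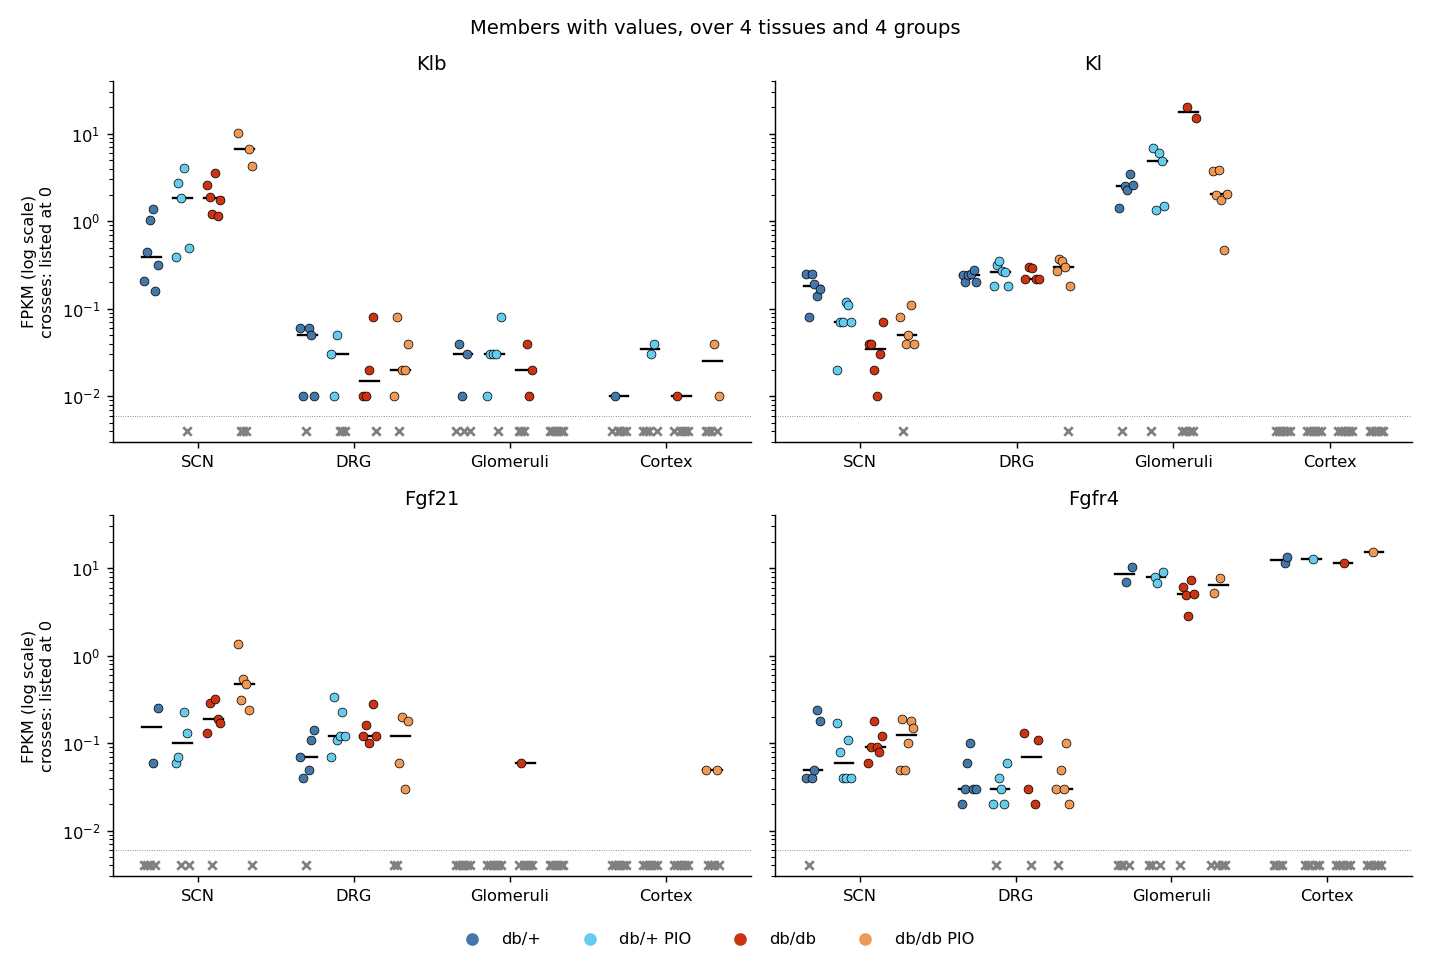
FPKM (y axis, log scale) of Klb, Kl, Fgf21 and Fgfr4 in each library of the 4 tissues, coloured by group, with a line at the median of the values above 0 and crosses for libraries listed at 0. Klb is high in SCN, Kl in glomeruli, with no value in cortex, and Fgfr4 in both kidney tissues. Klb in SCN is lowest in db/+ and highest in db/db PIO.

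Differences between groups were tested within each tissue on log2(FPKM + 1) with limma over all genes that had at least 1 FPKM in at least 5 libraries and at least 3 values in each compared group, and p-values were adjusted by the Benjamini-Hochberg method over all genes tested. Klb in SCN and Kl in glomeruli were the members that passed this filter. Because 1 FPKM is added, fold changes understate those of low genes. In bulk tissue a smaller number of cells of a type and less RNA per cell cannot be told apart.

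Klb, the co-receptor of FGF21, was higher in SCN of db/db than of db/+ mice and higher again in db/db PIO mice. In db/+ SCN its values were 0.21, 0.45, 1.03, 1.39, 0.16 and 0.32 FPKM. In db/db SCN they were 2.57, 1.91, 1.21, 3.55, 1.16 and 1.73 FPKM. The lowest db/db values, 1.16 and 1.21 FPKM, lay below the highest db/+ value of 1.39 FPKM, and the other 4 db/db libraries lay above all db/+ libraries. The mean was 0.593 ± 0.501 FPKM (SD, n = 6) in db/+ and 2.02 ± 0.909 FPKM (SD, n = 6) in db/db, with a ratio of medians of 4.73. On the log2(FPKM + 1) scale the difference was 0.93 (SE 0.299, limma adjusted p = 0.0434), in a comparison in which 14.9% of all 4233 genes tested were called. This call stood close to the threshold: without the filter on low values the adjusted p was 0.0659, with array weights 0.0793, and 9 of the 24 fits that left out 1 SCN library lost it. Those libraries were replicates 1, 2, 5 and 6 of db/+, replicates 1, 2, 4 and 6 of db/db and replicate 5 of db/db PIO, and the adjusted p without each lay between 0.0514 and 0.0938.

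With pioglitazone, Klb stood at 10.2, 6.70 and 4.32 FPKM in SCN of db/db mice, and the other 3 db/db PIO libraries were listed at 0. Each of the 3 values was above every db/db value. The mean of 7.06 ± 2.93 FPKM (SD, n = 3) lay 1.40 above db/db on the log2(FPKM + 1) scale (SE 0.366, limma adjusted p = 0.0184), where 10.1% of 3940 genes were called. Because 3 of 6 libraries were missing, the result turns on how a 0 is read. With each 0 entered as a value the difference was -0.07 (adjusted p = 1), and with a pseudocount of 0.1 it was 1.78 with an adjusted p of 0.0885. Replicates 1, 5 and 6 carry the value, and without any 1 of them too few values are left for the test.

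In db/+ mice the response of Klb to pioglitazone was uneven. The values were 0.39, 2.74, 1.83, 4.08 and 0.49 FPKM with 1 library at 0, so 3 libraries stood above all db/+ libraries and 2 among them. The difference of 0.74 (SE 0.314, limma adjusted p = 0.342) did not pass the test in a comparison with calls for 0.0778% of 5142 genes. Between the treated groups, Klb was 1.59 higher in db/db PIO than in db/+ PIO (SE 0.378, limma adjusted p = 0.00337), and the ranges did not overlap, where 33.8% of 4402 genes were called. This was the largest of the 4 Klb differences and was lost when each 0 was a value (0.34, adjusted p = 0.870). The effect of pioglitazone was not shown to depend on genotype: the interaction of Klb was 0.66 (SE 0.482, limma adjusted p = 0.434), with 6.23% of 3596 genes called.

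**Figure D3:**
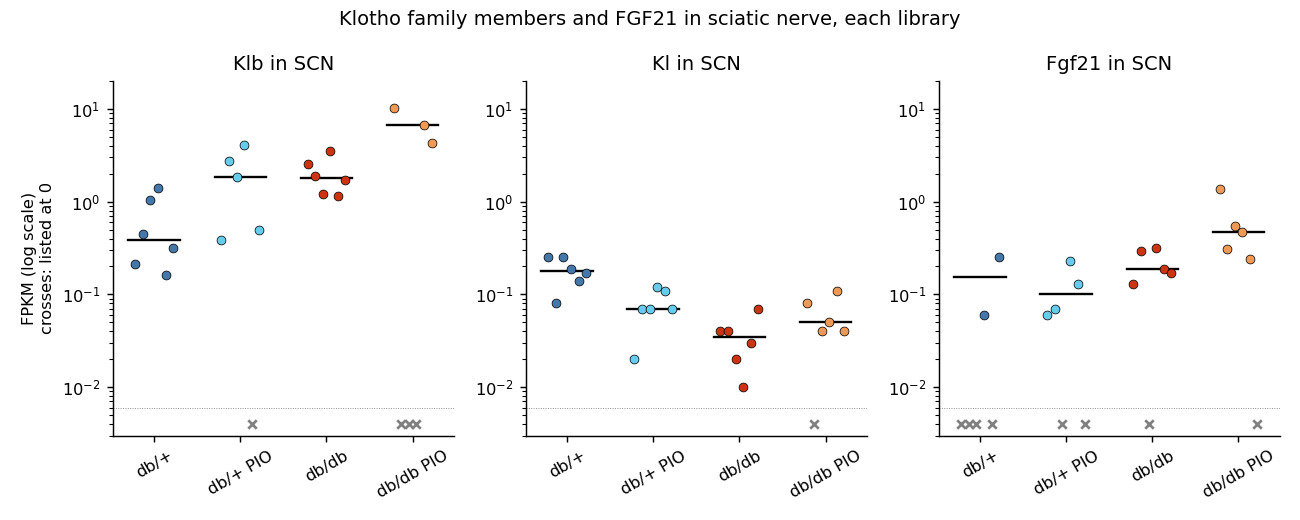
FPKM (y axis, log scale) of Klb, Kl and Fgf21 in each SCN library of the 4 groups (x axis), with a line at the median of values above 0 and crosses for libraries at 0. Klb medians run from 0.385 in db/+ to 6.7 FPKM in db/db PIO, Kl medians fall from 0.18 in db/+ to 0.035 FPKM in db/db, and Fgf21 reaches 0.47 FPKM in db/db PIO.

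Kl, the co-receptor of FGF23, moved in the other direction in SCN, at a level far below that of Klb. In db/+ SCN it was at 0.25, 0.08, 0.25, 0.19, 0.14 and 0.17 FPKM. In db/db SCN it was at 0.04, 0.04, 0.02, 0.01, 0.03 and 0.07 FPKM, so that all 6 diabetic libraries lay below all 6 controls. With pioglitazone the values ran from 0.02 to 0.12 FPKM in db/+ mice (n = 6) and from 0.04 to 0.11 FPKM in db/db mice (n = 5), between and overlapping with those of the untreated groups. These levels do not pass the filter, and the tests come from the same fit without it, a setting chosen after seeing the data. The fall from db/+ to db/db was -0.19 on the log2(FPKM + 1) scale (SE 0.0308, limma adjusted p = 0.000646), with 8.99% of 7621 genes called in that fit, and the ratio of medians was 0.194. The call was kept under all 11 other settings and without each of the 24 SCN libraries, with adjusted p from 9.05e-05 to 0.0139.

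The differences of SCN Kl with pioglitazone did not pass in either genotype. The difference was -0.13 in db/+ (SE 0.0308, limma adjusted p = 0.134, 0.0472% of genes called), where it passed without db/+ replicate 2 (adjusted p = 0.0331) and with array weights (adjusted p = 0.0337), and 0.04 in db/db (limma adjusted p = 0.552, 5.46% of genes called). In db/+ PIO against db/db PIO it was -0.02 (limma adjusted p = 0.754, 23% of genes called). The interaction of genotype and pioglitazone was 0.17 (SE 0.0446, limma adjusted p = 0.0441, 2.81% of genes called), and 16 of the 24 fits that left out 1 library lost that call, with adjusted p up to 0.0784. It was also lost under 6 of 10 other settings, with adjusted p up to 0.487. At 2 decimals the lowest values are few steps of 0.01 FPKM above 0.

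Fgf21 was the third member that differed in SCN. It was above 0 in 2 of 6 db/+ libraries, at 0.06 and 0.25 FPKM, and in 4 of 6 db/+ PIO libraries, at 0.06, 0.07, 0.23 and 0.13 FPKM. In db/db mice it stood at 0.13, 0.29, 0.32, 0.19 and 0.17 FPKM, and in db/db PIO mice at 1.36, 0.31, 0.54, 0.47 and 0.24 FPKM, with 1 library at 0 in each group. All 5 values of db/db PIO lay above the 4 values of db/+ PIO. Without the filter the difference between these groups was 0.46 (SE 0.143, limma adjusted p = 0.0316, n = 4 and 5), and that call was lost without db/+ PIO replicate 1, 2 or 5 or db/db PIO replicate 3, with adjusted p up to 0.0763. The call was also lost with each 0 as a value (0.41, adjusted p = 0.178). With only the compared groups the adjusted p was 0.0876, and with the replicate block 0.0786. From db/db to db/db PIO the difference of 0.34 did not pass (SE 0.135, limma adjusted p = 0.186), and replicate 1 of db/db PIO, at 1.36 FPKM, stood apart from its group. The untreated groups could not be compared because db/+ had 2 values.

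Fgfr4 in SCN had medians of 0.05 FPKM in db/+, 0.06 FPKM in db/+ PIO, 0.09 FPKM in db/db and 0.125 FPKM in db/db PIO, and the ranges of all groups overlapped. Without the filter limma called it in none of the 4 SCN comparisons, and none reached an unadjusted p under 0.05.

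In DRG, which hold the cell bodies of the sensory axons, no member was called. Klb stood between 0.01 and 0.08 FPKM in 17 libraries, and Kl between 0.18 and 0.37 FPKM in 22. The DRG medians of Kl were 0.24 FPKM in db/+, 0.22 FPKM in db/db, 0.265 FPKM in db/+ PIO and 0.3 FPKM in db/db PIO. Fgf21 lay between 0.03 and 0.34 FPKM in 20 libraries. Without the filter, limma called 0 of the 4 measured members in each of the 4 comparisons, and 0 at an unadjusted p under 0.05, where it called 1.95% of all genes in db/+ against db/db, 0.0125% in db/+ against db/+ PIO, 4.86% in db/+ PIO against db/db PIO and 0% in db/db against db/db PIO. The change of Kl from db/+ to db/db differed between SCN and DRG by -0.20 (SE 0.0499, limma adjusted p = 0.00908), in a test of the difference itself with calls for 6.84% of 4857 genes. That call was lost with quantile normalization (-0.12, adjusted p = 0.147) and with each 0 as a value (adjusted p = 0.323). The change of Klb from db/db to db/db PIO was 1.40 higher in SCN than in DRG (SE 0.393, limma adjusted p = 0.0430, 3.16% of 4846 genes called), and 14 of 44 fits without 1 library lost that call, with adjusted p up to 0.0774. It was also lost with a pseudocount of 0.1 (adjusted p = 0.261) or 0.01 (adjusted p = 0.534) and with quantile normalization (adjusted p = 0.167), and the sign turned when each 0 was a value (-0.0781). At the low DRG level of Klb the log2(FPKM + 1) scale leaves little room for a change, which was 0.0057 there. This contrast therefore nearly repeats the SCN change and cannot show that the 2 tissues respond differently. The change of Klb from db/+ to db/db was 0.94 higher in SCN than in DRG and did not pass (limma adjusted p = 0.109).

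Other genes followed Klb closely in SCN. No member had 3 values in at least 12 of the 16 groups, the number set for naming genes of like pattern across tissues, and Klb and Kl reached 11. A comparison over single SCN libraries was therefore added after seeing the data. Among 1751 genes that shared at least 18 SCN libraries with Klb, the highest Pearson r on log2(FPKM + 1) was found for Retsat, a retinol saturase induced in adipocyte differentiation (0.961, n = 19), Gsto1, a glutathione transferase (0.960, n = 18), and Paqr9 (0.951, n = 20). With group means subtracted, r was 0.959, 0.932 and 0.834. The libraries share their dissection and their unknown depth, so these are descriptions. Paqr9 had no missing SCN value and ran from 0.39 to 1.92 FPKM in db/+, 0.94 to 5.73 FPKM in db/+ PIO, 1.61 to 6.67 FPKM in db/db and 6.97 to 30.4 FPKM in db/db PIO. Replicates 2, 3 and 4 of db/db PIO, in which Klb was listed at 0, had 22.7, 21.8 and 14.1 FPKM of Paqr9.

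**Figure D4:**
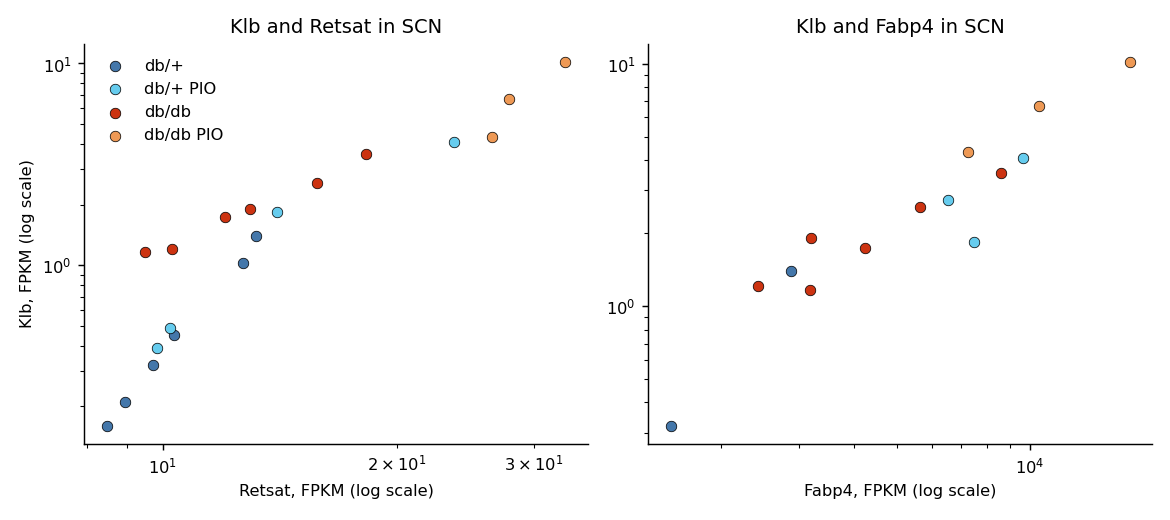
Klb (y axis, FPKM, log scale) against Retsat and Fabp4 (x axes, FPKM, log scale) in SCN libraries with both values, coloured by group. Pearson r on log2(FPKM + 1) is 0.961 over 19 libraries for Retsat and 0.934 over 14 libraries for Fabp4.

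The adipocyte marker list could be read beside Klb in SCN through 1 of its 9 genes, Fabp4. Fabp4 is a fatty acid binding protein of adipocytes and endothelium. It stood at 1543 and 2874 FPKM in the 2 db/+ libraries with a value. In db/+ PIO it ran from 5766 to 9665 FPKM (n = 4). It stood at 2428 to 8591 FPKM in db/db and at 7230 to 16830 FPKM in db/db PIO (both n = 6). Its r with Klb was 0.934 (n = 14), and 0.827 with group means subtracted. Of the 9 adipocyte markers, 1, Fabp4, had a value in diabetic libraries of either treatment, and 77.8% to 88.9% of all entries of the list were 0 in each group. None of the list could be tested in db/+ against db/db, and in db/db against db/db PIO the 1 that could, Fabp4, was higher. The summed level of the list ran from 0 to 2874 FPKM in db/+, 1.94 to 9665 FPKM in db/+ PIO, 2428 to 8591 FPKM in db/db and 7230 to 16830 FPKM in db/db PIO. In this and the other marker sums a missing value adds nothing. The ranges therefore also follow the missing entries and are not comparable levels between groups. Adipoq and Lep, hormones of fat cells, and Plin1, which coats lipid droplets, were listed at 0 in all 12 db/db and db/db PIO libraries, while Adipoq had values of 38.9 to 323 FPKM in 7 libraries of db/+ and db/+ PIO mice. These zeros were read as missing and do not show that the genes were low in diabetic nerve. The paper itself reports Lep as higher in db/db than in db/+ SCN. The 5 brown adipocyte markers summed to 5.61 to 74.6 FPKM in db/+, 34.7 to 285 FPKM in db/+ PIO, 5.50 to 48.9 FPKM in db/db and 0.42 to 279 FPKM in db/db PIO, with 0 of 4 tested called in db/+ against db/db and 2 of 2 tested higher in db/db PIO than in db/db, beside the 10.1% of all genes. The 7 skeletal muscle markers summed to 15 to 19.6 FPKM in db/+, 11.5 to 33.8 FPKM in db/+ PIO, 12.1 to 154 FPKM in db/db and 10.7 to 257 FPKM in db/db PIO, and 0 of 4 and 0 of 3 tested were called in the same comparisons. The part of fat and muscle cells in the Klb differences was not tested.

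In glomeruli, Kl was the member of interest. It stood at 1.40, 2.51, 2.28, 3.47 and 2.57 FPKM in db/+ mice with 1 library at 0. In db/db mice it was 19.95 and 15.1 FPKM in replicates 3 and 6, and the other 4 libraries were at 0. In db/db PIO mice all 6 libraries had values, 3.76, 1.97, 3.83, 1.75, 0.47 and 2.07 FPKM. Both diabetic values were more than any of the other 16 glomerular values, the highest of which was 6.81 FPKM in db/+ PIO. With 2 values db/db did not enter the main test. When groups with 2 values were allowed, the difference was 2.44 from db/+ to db/db (SE 0.475, limma adjusted p = 0.00168, 21.4% of genes called), -2.58 from db/db to db/db PIO (SE 0.463, limma adjusted p = 0.00111, 19.3% of genes called) and -2.998 for the interaction (SE 0.586, limma adjusted p = 0.00526, 8.08% of genes called), all resting on the same 2 libraries. The comparisons that the main fit allowed did not pass: Kl differed by 0.42 between db/+ and db/+ PIO (SE 0.359, limma adjusted p = 0.997) and by -0.56 between db/+ PIO and db/db PIO (SE 0.344, limma adjusted p = 0.354).

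The pathway that FGF23 and alpha-klotho act on was followed in a list of 15 calcium, phosphate and vitamin D genes, of which 5 could be tested in glomeruli. These 5, S100g, Trpv6, Galnt3, Vdr and Slc9a3r1, were called higher in db/db than in db/+, where 25.4% of all genes tested were called, and lower in db/db PIO than in db/db, where 23.1% were. Trpv6 and Galnt3 passed the filter on low values only through the db/db group, with 6 and 4 libraries of at least 1 FPKM there, so the filter could admit them only where db/db was high. Without the filter 7 genes of the list were tested in diabetes and 8 with pioglitazone, and the same 5 were called, beside 19% and 18% of all genes.

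S100g, the calcium carrier calbindin-D9k of tubule cells, was at 6.77, 137, 13.9 and 16.2 FPKM in 4 db/+ libraries, at 473, 450 and 91.6 FPKM in 3 db/db libraries and at 9.62 to 19.1 FPKM in 3 db/db PIO libraries, with the remaining libraries of each group at 0. The value of 137 FPKM in db/+ replicate 2 lay above 1 of the 3 db/db values, so these groups overlapped. The difference of S100g was 3.56 in diabetes (SE 0.876, limma adjusted p = 0.00891) and -4.17 with pioglitazone (SE 0.936, limma adjusted p = 0.00587), on 3 or 4 values a group, so that without any 1 of the 3 db/db libraries it could not be tested. The diabetes difference was 4.43 without db/+ replicate 2 and 3.04 without db/+ replicate 1, both called. With each 0 as a value both calls of S100g were lost (1.03, adjusted p = 0.879, and -2.08, adjusted p = 0.742). Trpv6, an epithelial calcium channel, had a value in all 6 db/db libraries, 1.48, 2.21, 1.61, 3.73, 3.53 and 2.16 FPKM, against 0.01 to 0.84 FPKM in 5 db/db PIO libraries, with no overlap. Trpv6 rose by 1.42 in diabetes (SE 0.214, limma adjusted p = 6.669e-05) and fell by 1.50 with pioglitazone (SE 0.224, limma adjusted p = 8.862e-05). Without the filter the adjusted p of Trpv6 was 0.0001067 and 0.0001269.

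Galnt3, whose enzyme glycosylates and thereby stabilises FGF23, rose by 0.99 and fell by 1.21 (limma adjusted p = 0.00809 and 0.00247, and 0.0112 and 0.00319 without the filter). Vdr, the vitamin D receptor, rose by 0.44 and fell by 0.62 (limma adjusted p = 0.0253 and 0.00376), and its rise lost the call without db/+ replicate 1, 3 or 4 or db/db replicate 1 or 5, with adjusted p up to 0.0772, and under 5 of 10 other settings, with adjusted p up to 0.978. The remaining gene, Slc9a3r1, a scaffold of phosphate transporters that lies outside the naming rule and was named after its values were seen, rose by 0.22 and fell by 0.24 (limma adjusted p = 0.0215 and 0.0122). Its rise lost the call in 3 of 24 fits without 1 library, and its direction in both comparisons, unlike that of the other 4, turned when each 0 was entered as a value. In SCN 2 genes of the list could be tested and 1, Slc9a3r1, was called, higher in db/db. Whether the changes of the list differ between these tissues was not tested.

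Tubule markers are the values to read beside these. In their sums, too, a missing value adds nothing, so the ranges are not comparable levels between groups. S100g is itself 1 of the 8 markers of loop of Henle and distal tubule and the only 1 of them that could be tested, and the list summed to 8.96 to 222 FPKM in db/+ glomeruli, 12.7 to 94.5 FPKM in db/+ PIO, 0.68 to 474 FPKM in db/db and 12.4 to 44.8 FPKM in db/db PIO. Both collecting duct markers that could be tested rose in diabetes and fell with pioglitazone, and of 4 tested fibroblast markers 4 rose and 2 fell. Of all genes, 25.4% and 23.1% were called in these comparisons. In diabetes 1 of 1 tested marker also rose for adipocytes, for brown adipocytes and for mesangial and smooth muscle cells, and 1 of 2 for satellite glia. The 1 tested podocyte marker and the 1 tested Schwann cell marker were not called. Of 4 tested proximal tubule markers 1 rose and 1 fell, and the 8 markers of that list summed to 22.3 to 35.1 FPKM in db/+, 16.9 to 31.1 FPKM in db/+ PIO, 7.77 to 80.0 FPKM in db/db and 1.19 to 37.9 FPKM in db/db PIO. Umod, Slc12a1 and Slc12a3, defining markers of these segments, were at 0, read as missing, in all db/+ and db/db glomerular libraries. In the treated groups Slc12a3 had values in 3 db/+ PIO libraries (0.67 to 17.4 FPKM) and 2 db/db PIO libraries (0.41 and 3.22 FPKM). Umod had 1 value in db/+ PIO (2.95 FPKM) and 2 in db/db PIO (2.20 and 26.6 FPKM). Slc12a1 had 2 in db/+ PIO (0.81 and 5.02 FPKM) and 2 in db/db PIO (0.90 and 3.51 FPKM). In replicate 6, the db/db library with 15.1 FPKM of Kl, Calb1, the other calbindin of the distal tubule, was at 49.8 FPKM, and in the other 5 db/db libraries Calb1 was at 0. Calb1 had a value in all 6 db/+ libraries, from 1.84 to 80.7 FPKM, and the highest was in replicate 2, the db/+ library with 137 FPKM of S100g, in which Kl was listed at 0. The part of tubule fragments in the glomerular results was not tested.

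**Figure D5:**
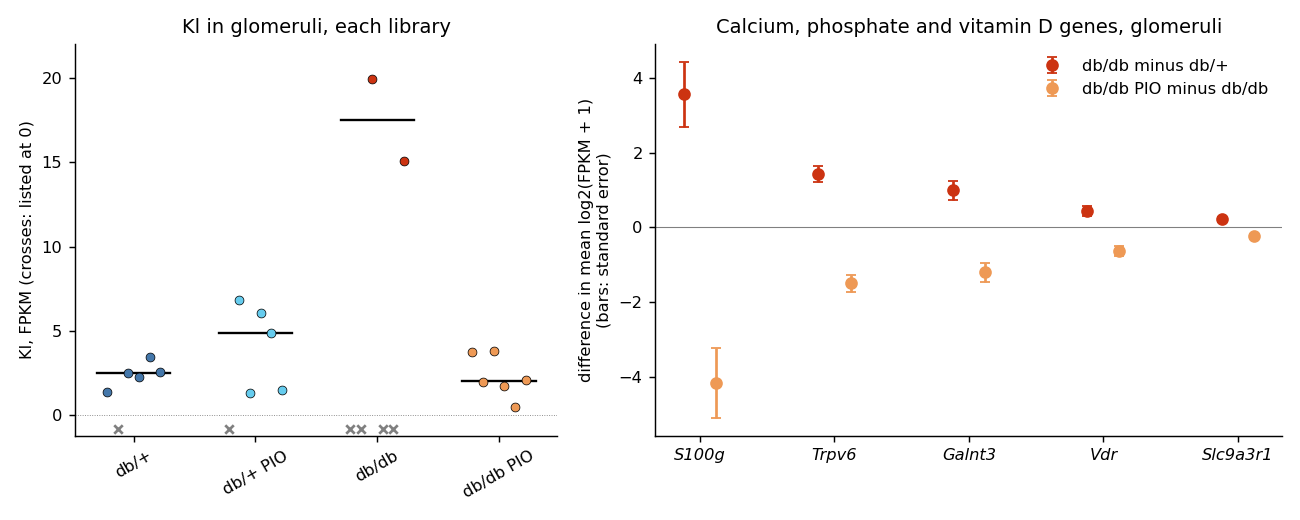
Left, Kl in FPKM (y axis) in each glomerular library of the 4 groups, with a line at the median of values above 0 and crosses for libraries at 0. Right, differences in mean log2(FPKM + 1) with standard errors for the 5 tested calcium, phosphate and vitamin D genes, all above 0 for db/db minus db/+ and below 0 for db/db PIO minus db/db, with Slc9a3r1 turning in both when each 0 is a value.

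Fgfr4 in glomeruli had 2 values in db/+ (6.90 and 10.2 FPKM), 3 in db/+ PIO (8.01, 6.76 and 9.10 FPKM), 5 in db/db (6.12, 4.94, 2.87, 7.26 and 5.02 FPKM) and 2 in db/db PIO (5.19 and 7.77 FPKM). Of the 5 diabetic values 3 lay below all values of the other groups. With groups of 2 values allowed, the difference from db/+ to db/db was -0.63 (SE 0.265, limma adjusted p = 0.117) and did not pass. In cortex its values were 11.6 and 13.5 FPKM in db/+, 12.9 FPKM in db/+ PIO, 11.6 FPKM in db/db and 15.5 FPKM in db/db PIO, 5 of 24 libraries in all, and no comparison could be made.

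The wider FGF pathway was followed in 7 lists of 97 genes: other ligands, intracellular homologous factors, adaptors and co-receptors, feedback and target genes, heparan sulfate genes, the calcium, phosphate and vitamin D genes, and PPAR and FGF21 axis genes. In SCN, 7 of 32 tested genes passed in db/+ against db/db (2 higher, 5 lower), beside the 14.9% of all genes. In db/db against db/db PIO 5 of 27 passed (4 higher, 1 lower), and in db/+ PIO against db/db PIO 10 of 30 (7 higher, 3 lower), beside 10.1% and 33.8% of all genes.

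Heparan sulfate genes supply the glycan that classical FGFs need to bind their receptors, and 3 of 11 tested fell in diabetic SCN. Gpc3, a membrane-anchored proteoglycan, went from 326 ± 29.3 FPKM (SD, n = 4) to 141 ± 22.3 FPKM (SD, n = 6), a fall of 1.22 on the log2 scale (SE 0.140, limma adjusted p = 1.838e-05). Sdc2 fell by 0.82 and Gpc4 by 0.36 (limma adjusted p = 0.00440 and 0.00327). The feedback inhibitors Spry4 and Spred1 fell by 0.53 and 0.38 (limma adjusted p = 0.00269 and 0.0152), 2 of 6 tested in their list, while the adaptor Shb rose by 0.41 (limma adjusted p = 0.00530), 1 of 8 in its list. Slc9a3r1 rose by 1.00 (limma adjusted p = 0.0126). Of these, the directions of Gpc3, Shb and Slc9a3r1 turned when each 0 was a value.

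With pioglitazone in db/db SCN, Fgf10, a paracrine ligand of FGFR2 that is known from preadipocytes, rose from 0.630 ± 0.379 FPKM to 3.68 ± 0.928 FPKM (SD, n = 6 each). The db/db values were 1.15, 0.56, 0.15, 1.01, 0.39 and 0.52 FPKM and the db/db PIO values 4.43, 3.77, 4.32, 3.85, 3.81 and 1.87 FPKM, with no overlap and no missing library. The difference of 1.52 (SE 0.260, limma adjusted p = 0.00101) was the largest among the pathway genes of SCN in that comparison, and it was 1 of 2 tested ligands. Egr1, an early target of growth factor signalling, rose by 0.71 (limma adjusted p = 0.0404), a call lost without db/db replicate 2, 3 or 6 or db/db PIO replicate 2, 3 or 4, with adjusted p up to 0.107. That call was also lost under 4 of 11 other settings, with adjusted p up to 0.51. Among 11 tested heparan sulfate genes, the synthesis genes Hs6st1 and Ext1 rose by 0.37 and 0.27 (limma adjusted p = 0.0408 and 0.0350) and Hs2st1 fell by 0.26 (limma adjusted p = 0.0415). These 3 calls were lost in 9 of 24, 2 of 21 and 7 of 24 fits without 1 library, with adjusted p up to 0.112, 0.0794 and 0.134. They were also lost under 4 of 11, 3 of 10 and 6 of 10 other settings.

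In glomeruli 9 of 29 tested pathway genes were higher in diabetes and none lower, where 25.4% of 4210 genes were called, and 8 of 30 passed in db/db against db/db PIO (1 higher, 7 lower), where 23.1% of 4158 were. Besides the calcium and phosphate genes, diabetes raised Slc2a1, a glucose transporter, by 0.99 (limma adjusted p = 0.00206), the adaptors Shb by 0.43 and Frs3 by 0.36 (limma adjusted p = 0.0494 and 0.0411) and Ext1 by 0.31 (limma adjusted p = 0.00275). The calls of Shb and Frs3 were lost in 18 of 21 and 7 of 24 fits without 1 library, with adjusted p up to 0.104 and 0.111, and under 9 and 6 of 10 other settings, with adjusted p up to 0.879 and 0.966. The directions of Slc2a1 and Ext1 turned when each 0 was a value. Pioglitazone in db/db mice lowered Shb by 0.62 (limma adjusted p = 0.00992) and raised Gpc1 by 0.67 (limma adjusted p = 0.0201), which turned when each 0 was a value. In db/+ PIO against db/db PIO 2 of 33 passed, both higher, against 8.41% of all genes.

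DRG and cortex held few changes. In DRG, 1 of 24 tested pathway genes passed in db/+ against db/db, where 4.13% of all genes did: Gpc3 rose by 0.48 (limma adjusted p = 0.0457), opposite to SCN, a difference between tissues that was not tested, and 13 of the 23 fits without 1 library lost this call, with adjusted p up to 0.109. In db/+ PIO against db/db PIO 4 of 29 passed (8.64% of all genes), and in db/db against db/db PIO none of 24 (0% of all genes; 7 at an unadjusted p under 0.05). In cortex, Fgf18, a ligand, fell by 0.63 in diabetes (limma adjusted p = 0.00304, and 0.0037 without the filter, which it passed only through db/+ and db/+ PIO, where it was high), Sdc3 by 0.51 and Spry4 by 0.41 (both limma adjusted p = 0.0263), which made 3 of 24 beside 10.3% of all genes, and the calls of Sdc3 and Spry4 were lost in 2 and 3 of 24 fits without 1 library, with adjusted p up to 0.0677 and 0.068. In db/+ PIO against db/db PIO 4 of 22 cortex genes passed (19.7% of all genes) and in db/db against db/db PIO none of 21 (3.24% of all genes; 6 at an unadjusted p under 0.05). Pioglitazone in db/+ mice changed no pathway gene by limma in any tissue (0 of 118 tests, 17 at an unadjusted p under 0.05), where 0% of all genes passed in DRG and in glomeruli, 0.025% in cortex and 0.0778% in SCN.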

How the data were processed

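RNA-Seq libraries from SCN, DRG, glomeruli and cortex were analysed from the expression files, 1 per library, with 6 libraries per group (5 for db/db DRG). Per the labels and methods, the authors sequenced TruSeq mRNA libraries as paired reads, aligned them to mm9 (NCBI 37) using TopHat and Bowtie, and computed the deposited FPKM values with Cufflinks. Their versions: not given in the sources used here. FPKM divides out transcript length and mapped reads, so read depth behind a value is unknown, and files are rounded to 2 decimals. Values of 0 were treated as missing.

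Groups came from sample titles. Values were tested as log2(FPKM + 1) with limma 3.58.1 in R 4.3.3, 1 mean per group of a tissue, variances with an intensity trend, for genes with at least 1 FPKM in at least 5 libraries and at least 3 values per compared group. The interaction of genotype and pioglitazone and differences between tissues were contrasts of the same kind of fit. Calls are Benjamini-Hochberg adjusted p-values below 0.05. The study itself used Cuffdiff, which needs reads. The fit was tested on simulated data. The members and all gene lists were chosen with earlier results of these data known. Named genes are all 8 members, the called pathway genes of db/+ against db/db and db/db against db/db PIO (at most 4 per list and tissue, by size of change), and defining markers. Fabp4, Lep, Calb1 and Slc12a1 were named from the marker lists, and the genes most like Klb in SCN, after their values were seen. Alternatives were the pseudocount, the filter, the reading of 0, rescaling, quantile normalization, the groups in the fit, the variance trend, array weights, a replicate block, the number of values and leaving out each library. Promoters came from RefSeq (GRCm38.p6) and were located in mm9, and gene positions from Gencode vM1. Some genes that the naming rule covers are not reported here.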

Additional observations from a re-analysis of the deposited data

Results flagged for a closer look

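Outlying single values were looked for in the 34 member groups with 4 to 6 values, by comparing the gap at either end of a group with its whole range. Chance alone gives about 1 such group in 20. Fgf21 in SCN of db/db PIO replicate 1 stood at 1.36 FPKM with the next library at 0.54 FPKM. Klb in DRG of db/db replicate 4 stood at 0.08 FPKM with the next at 0.02 FPKM, and Klb in glomeruli of db/+ PIO replicate 6 stood at 0.08 FPKM with the next at 0.03 FPKM, both within a few steps of the rounding of 0.01 FPKM.

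Effects that differed between tissues or genotypes by a test of the difference, all without the filter on low values, were those of Kl and Klb. The change of Kl from db/+ to db/db in SCN minus that in DRG was -0.205 (limma adjusted p = 0.00908), a call lost with quantile normalization (adjusted p = 0.147) and with each 0 as a value (adjusted p = 0.323). The change of Klb from db/db to db/db PIO in SCN minus that in DRG was 1.40 (limma adjusted p = 0.0430), a call lost with a pseudocount of 0.1 (adjusted p = 0.261) and with quantile normalization (adjusted p = 0.167) and turned in sign with each 0 as a value. Klb in DRG was too low to change much on this scale, so the contrast nearly repeats the SCN change and cannot show a different response. In SCN the effect of pioglitazone on Kl differed between genotypes by 0.171 (limma adjusted p = 0.0441), a call lost under 6 of 10 other settings.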

How the results depend on the processing

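The reading of 0 mattered most. With each 0 as a value, 0 members were called in each of the 3 comparisons that had 1, pathway calls were 2 in db/+ against db/db, 0 in db/+ PIO against db/db PIO and 3 in db/db against db/db PIO in place of 20, 20 and 13, and these differences changed sign: Klb in SCN from db/db to db/db PIO (-0.0719) and its interaction (-0.59), Klb in SCN minus DRG for that comparison (-0.0781), Ext1 (-0.47), Slc9a3r1 (-0.82) and Slc2a1 (-0.76) in diabetic glomeruli, Gpc1 (-1.53) and Slc9a3r1 (1.77) with pioglitazone in db/db glomeruli, and Shb (-0.0109), Gpc3 (1.57) and Slc9a3r1 (-2.05) in diabetic SCN. This alternative also enters zeros of high genes as values.

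With a pseudocount of 0.1 the members called in db/db against db/db PIO were 0, and with array weights those in db/+ against db/db were 0. Without the filter they were 2 in db/+ PIO against db/db PIO, 1 for the interaction and 1 for each SCN against DRG comparison. With 2 values per group they were 2 in db/+ against db/db, 2 in db/db against db/db PIO and 1 for the interaction. With 5 values they were 0 in the comparisons with db/db PIO, and pathway calls were 8 in db/+ against db/db and 5 in db/db against db/db PIO, since fewer genes were tested.

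Leaving out 1 library gave 0 to 1 members in each of the 3 comparisons with a call, 0 to 1 pathway genes in db/+ against db/+ PIO, 16 to 25 in db/+ against db/db, 17 to 22 in db/+ PIO against db/db PIO and 9 to 15 in db/db against db/db PIO. Members called in db/+ against db/+ PIO and by interaction, which tested 1 member, stayed at 0. Between tissues no member could be tested with the filter, so that count could only be 0. Of 33 called pathway changes, 11 lost their call without some library, and 23 lost it with the direction kept under some other setting. With each 0 as a value these were 21, the 8 that changed sign lost their call too, and 4 of the 33 kept theirs. The other losses were 10 with only the compared groups, 9 with quantile normalization, 7 with median-of-ratios rescaling and 6 without the filter. A further 6 came with the replicate block, 2 with 2 values per group, 1 with a pseudocount of 0.1 and 1 without the variance trend.

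Whether same-numbered libraries deviated together varied from pair to pair. The median r of their deviations was -0.000687 for SCN, 0.0601 for DRG, 0.120 for glomeruli and -0.00715 for cortex, with values below 0 in each tissue. Some pairs did deviate together, with a highest r of 0.669 (cortex), 0.561 (SCN), 0.461 (DRG) and 0.442 (glomeruli). An r over 0.1 was found for 20 of 36 glomerular, 15 of 33 DRG, 11 of 36 cortex and 10 of 36 SCN pairs. With the replicate block, 1 member was called in each of the same 3 comparisons, 6 of the 33 pathway changes lost their call, and the adjusted p of Kl for the SCN interaction was 0.0871 and of Fgf21 in db/+ PIO against db/db PIO 0.0786. Unknown depth and rounding limit all members below 0.1 FPKM.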
